A study of Mus musculus with 36 samples.

Results

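Supporting cells of the XY fetal mouse gonad, the lineage that becomes the Sertoli cells of the testis, were compared between 2 stages, TS34 and TS24, with 3 arrays at each stage. These 6 arrays, chosen by their labels alone, belong to a series of 36 arrays in 12 groups of 3, which covers germ cells and supporting cells of both sexes at TS13, TS24 and TS34. The labels place TS24 during and TS34 after sexual differentiation. Both XY groups were fetuses of the line Tg(Sox9-cre/ERT2)1Msan/J, labelled as C57BL/6 progeny, and were sorted on a reporter of Sox9. The XX supporting cells set beside them, 3 arrays at TS24 and 3 at TS34, came from Tg(Sry-EGFP)92Ei, labelled as CD-1 progeny, and were sorted on a reporter of Sry, as were the XY supporting cells at TS13. In all groups the gonads of one sex were pooled, treated with trypsin, stained with DAPI and sorted by flow cytometry. The gate itself depends on a transgene driven by regulatory DNA of Sox9, and neither its fluorescent protein nor any inducer of the recombinase is named in the labels. The labels do not say whether the 3 replicates of a group were separate pools, and the p-values therefore reflect only how far these arrays spread, which may be technical.

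Sertoli cells are the first somatic cells of the testis to take on a fate. They are specified by Sry and then held in that fate by Sox9 and by Fgf9, a secreted growth factor that opposes the ovarian WNT4 pathway. Once specified, they enclose the germ cells in cords, lay down a basement membrane around them, secrete anti-Müllerian hormone and signal through desert hedgehog to the steroid-producing Leydig cells that lie outside the cords. Later in life they are joined to each other by junctions that form the blood-testis barrier.

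The sorted cells carried the markers of their label. Sox9 itself lay between 11.35 and 11.85 at TS24 and between 10.97 and 11.11 at TS34, on the log2 scale of the arrays, against 8.54 to 9.02 in XX supporting cells at the same stages. The Y-linked Eif2s3y was at 8.83 to 9.42 in the 6 XY arrays and at 4.27 to 4.69 in the 6 XX arrays, and Xist, the RNA of the inactive X, was at 4.87 to 5.79 in XY and at 11.09 to 11.71 in XX. The germ cell genes Pou5f1 and Ddx4 stayed between 5.08 and 5.88 in the XY supporting arrays. One array elsewhere in the series went against its label. The library labelled germ XX TS24 replicate 3 read 5.04 for Ddx4, where the other two arrays of its group read 11.33 and 11.29, and it was left out of the estimate of the spread. The array medians of the 6 XY arrays ran from 6.50 to 6.70. The number of arrays limits the precision, and the typical standard error of a difference was 0.21.

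Differences were tested by limma, which fits a linear model to each gene and draws on all genes to steady the estimate of its spread. That spread came from 35 arrays, germ cells included, and p-values had Benjamini-Hochberg adjustment. Of 17615 genes tested, 187 (1.06%) differed between TS34 and TS24 at an adjusted p below 0.05. Of these, 28 (0.159% of the genes tested) were higher and 159 (0.903%) were lower at TS34, with median log2 differences of 1.04 and -0.96. The 3 arrays of one stage lay clear of the 3 of the other in 185 of the 187. Over all genes tested they did so in 393 (2.23%) with TS34 higher and 3319 (18.8%) with TS34 lower. Genes called for a large difference against their spread tend to be apart, so the 185 is a description only. The lopsided split of 28 against 159 depended on the scale. The median gene stood 0.17 lower at TS34 on the deposited scale, and after quantile normalization, which removes that shift, 70 genes (0.397%) were higher and 77 (0.437%) were lower. Median centring of the arrays gave 68 (0.386%) and 83 (0.471%). All 28 genes called higher were called again after quantile normalization, as were 77 of the 159 called lower. When all 36 arrays entered the estimate of the spread, 74 of the 187 kept an adjusted p below 0.05. The count also turned on single arrays. It was 85 without TS24 replicate 1, 315 without TS24 replicate 2, and 70, 96 and 95 without TS34 replicates 1, 2 and 3. The spread was unequal too, with a median standard deviation over genes of 0.28 at TS24 and 0.12 at TS34. Over all probe sets the TS24 arrays correlated with each other at 0.965 to 0.976 and the TS34 arrays at 0.9891 to 0.9915. TS24 replicates 2 and 3 correlated with the TS34 arrays at 0.9813 to 0.9838, above their correlation with each other, and TS24 replicate 1 did so at 0.9721 to 0.9738.

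**Figure D1:**
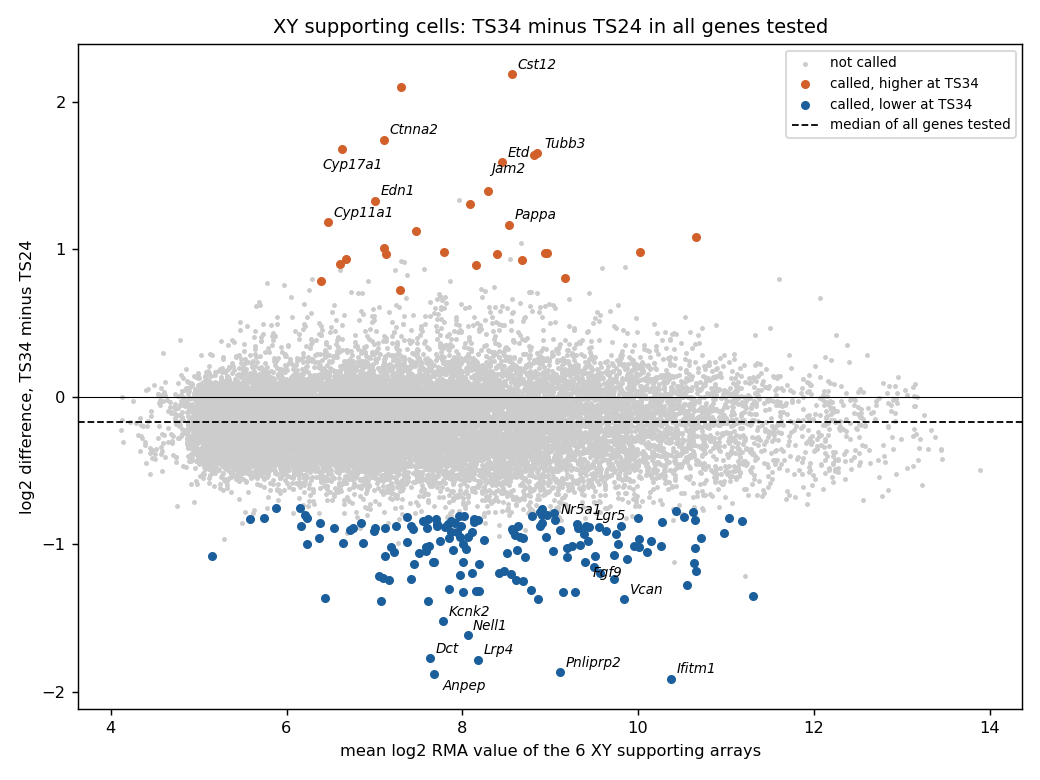
Each point is 1 of 17615 genes, with its mean log2 RMA value over the 6 XY supporting arrays on the horizontal axis and its log2 difference, TS34 minus TS24, on the vertical axis. Orange points are the 28 genes called higher, blue points the 159 called lower, and the dashed line is the median of all genes at -0.17.

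Ctnna2, Tubb3 and Jam2 were the members of a cell junction list that rose, 3 of 21 tested where 0.159% of all genes were called higher, and no member fell. The list was drawn up with earlier results of these data known and also holds Tubb3, a tubulin gene rather than a junction gene. Ctnna2 is among the genes given as marking the step, and the count is therefore a description only. Ctnna2, which encodes the alpha-catenin that ties cadherins to actin and is best known from neurons, read 6.24, 6.53 and 5.96 at TS24 and 7.87, 7.83 and 8.24 at TS34. The lowest TS34 array stood well above the highest TS24 array. The difference was 1.74 ± 0.20 (n = 3 per stage), a 3.34-fold rise with a limma adjusted p of 1.34e-07. Here and below, ± gives the limma SE, which rests on the spread over the 35 arrays and not on these 6 alone. Jam2, a junctional adhesion molecule, read 7.80, 8.23 and 7.97 and then 9.67, 9.21 and 10.03. Its groups were also apart, with a rise of 1.64 ± 0.28 and a limma adjusted p of 0.0003. Tubb3, a beta-tubulin known as a neuronal marker, went from 7.52, 8.35 and 8.21 to 9.79, 9.52 and 9.73. That was a rise of 1.65 ± 0.30, with a limma adjusted p of 0.000691.

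No other gene of the cell junction list passed the test. The median difference of the list was -0.17, the same as that of all genes. Ctnna1, the widely expressed relative of Ctnna2, differed by -0.54 ± 0.20 without passing the test (limma adjusted p = 0.229). Cgn, which encodes the tight junction protein cingulin, was 0.50 ± 0.23 higher and also missed it (limma adjusted p = 0.313). The cadherins, claudins, nectins and connexin of the list lay between -0.50 and 0.15 and none was called.

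Steroid synthesis starts when Star moves cholesterol into mitochondria, where Cyp11a1 cuts its side chain. Hsd3b1 and Cyp17a1 then carry the product towards androgens. In the fetal testis these genes are the mark of Leydig cells, which are outside the supporting lineage. Of 15 tested genes of a steroidogenic list, Cyp17a1 and Cyp11a1 rose, where 0.159% of all genes were called higher, and none fell. Both are among the genes given as marking the step, and the count is again a description only. Cyp17a1 read 5.24, 6.24 and 5.89 at TS24 and 7.76, 7.30 and 7.34 at TS34. Every TS34 array was above every TS24 array, and the rise was 1.68 ± 0.23, or 3.20-fold, with a limma adjusted p of 5.15e-06. Cyp11a1 read 5.60, 6.02 and 6.00 and then 7.42, 7.15 and 6.61. Its groups were apart as well, by 1.18 ± 0.23 (limma adjusted p = 0.00181). Without TS34 replicate 1 the difference was 1.01 and was not called (limma adjusted p = 0.0579).

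No other gene of the steroidogenic list passed the test. Its 15 tested genes had 4 with all TS34 arrays above all TS24 arrays, where 2.23% of all genes did, and 4 with all TS34 arrays below, where 18.8% did. Star was at 7.30, 7.56 and 7.51 at TS24 and at 7.76, 7.91 and 7.67 at TS34. Hsd3b1 was at 5.43, 5.88 and 5.63 and then at 5.88, 6.20 and 6.02. For both genes the TS34 values were at or above the highest TS24 value, but neither difference, 0.32 ± 0.21 and 0.38 ± 0.21, passed the test (limma adjusted p = 0.488 and 0.409). The lowest of the list was Nr4a1, a nuclear receptor that is induced by hormones and by stress. It read 9.49, 9.70 and 10.22 and then 8.83, 9.10 and 9.01, and its difference of -0.82 ± 0.23 missed the threshold (limma adjusted p = 0.0626). Nr4a1 was called lower when the spread came from the 18 supporting arrays alone (adjusted p = 0.0498) or the 6 XY arrays alone (adjusted p = 0.0344). The adrenal enzymes Cyp11b1 and Cyp21a1 differed by -0.02 and -0.41 and were not called. Insl3, Lhcgr, Ren1, Fdxr and Por had no probe set of their own in the annotation used and are not reported. The mean log2 level of the 15 genes was 7.28 to 7.34 at TS24 and 7.33 to 7.40 at TS34. In XY germ cells, sorted on an Oct4 reporter from mice labelled as C57BL/6NJ progeny of mixed background, Cyp17a1 lay between 4.95 and 5.79 and Cyp11a1 between 4.77 and 5.53 at both stages. In bulk arrays a change in the share of a cell type and a change in RNA per cell cannot be told apart, and the part of Leydig cells in the rise of Cyp17a1 and Cyp11a1 was not tested.

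Cyp11a1 also had a history that set it apart in shape from Cyp17a1 and Ctnna2. In XY supporting cells at TS13, from the Sry reporter line, Cyp11a1 had a mean of 6.85, above the TS24 mean of 5.87 and close to the TS34 mean of 7.06. Cyp17a1 went from 5.24 through 5.79 to 7.47, and Ctnna2 from 5.66 through 6.25 to 7.98. The step from TS13 to TS24 changed the mouse line as well as the stage, and the 2 cannot be told apart there.

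Promoter windows from RefSeq are shown for Cyp11a1, Ctnna2, Fgf9 and Etd, the Sertoli gene that rose, because they are the start regions of genes that moved in opposite directions in the same cells. Each window runs from 250 bases before to 50 bases after a transcription start on GRCm38.p6 and is written 5′ to 3′ on the strand of the gene. Capitals mark every match, on either strand, to 4 motifs that do not overlap each other here, namely AGGTCA (bound by nuclear receptors such as NR5A1), ACAAAG (bound by SOX and TCF factors), GATAAG (bound by GATA factors) and TATAAA (the TATA box). Cyp11a1 has 2 annotated starts, at chr9:57997774-57998073 and chr9:58014702-58015001 on the plus strand, Ctnna2 lies at chr6:77979618-77979917 on the minus strand, Fgf9 at chr14:58072436-58072735 and Etd at chrX:53434668-53434967, both on the plus strand.
Cyp11a1 at 57997774: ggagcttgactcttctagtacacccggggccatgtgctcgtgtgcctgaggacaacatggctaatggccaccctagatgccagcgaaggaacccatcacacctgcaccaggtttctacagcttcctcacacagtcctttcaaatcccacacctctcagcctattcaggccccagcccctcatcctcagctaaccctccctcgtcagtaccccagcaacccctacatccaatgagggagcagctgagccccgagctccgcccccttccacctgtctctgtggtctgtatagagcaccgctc
Cyp11a1 at 58014702: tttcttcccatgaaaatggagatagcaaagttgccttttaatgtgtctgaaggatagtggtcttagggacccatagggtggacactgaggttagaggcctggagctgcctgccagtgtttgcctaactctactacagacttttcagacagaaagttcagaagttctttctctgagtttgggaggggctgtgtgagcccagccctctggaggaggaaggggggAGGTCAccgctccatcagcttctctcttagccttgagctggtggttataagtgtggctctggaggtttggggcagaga
Ctnna2: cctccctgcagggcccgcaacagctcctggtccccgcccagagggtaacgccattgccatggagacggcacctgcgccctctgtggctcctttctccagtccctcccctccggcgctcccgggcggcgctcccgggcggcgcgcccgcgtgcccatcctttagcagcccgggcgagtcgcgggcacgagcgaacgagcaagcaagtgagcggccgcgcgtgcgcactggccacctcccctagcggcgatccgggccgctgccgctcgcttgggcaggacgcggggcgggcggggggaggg
Fgf9: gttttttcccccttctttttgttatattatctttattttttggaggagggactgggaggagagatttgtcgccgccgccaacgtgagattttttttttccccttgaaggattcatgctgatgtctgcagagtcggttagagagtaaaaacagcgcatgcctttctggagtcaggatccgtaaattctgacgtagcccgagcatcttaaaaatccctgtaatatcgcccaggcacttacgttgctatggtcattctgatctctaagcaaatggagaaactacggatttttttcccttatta
Etd: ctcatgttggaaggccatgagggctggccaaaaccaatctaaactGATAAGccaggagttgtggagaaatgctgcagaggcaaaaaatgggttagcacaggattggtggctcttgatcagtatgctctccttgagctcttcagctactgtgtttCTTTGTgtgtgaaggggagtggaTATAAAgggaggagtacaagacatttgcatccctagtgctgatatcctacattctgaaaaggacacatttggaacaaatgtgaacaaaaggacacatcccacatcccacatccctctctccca
The second Cyp11a1 window holds 1 AGGTCA on the strand of the gene, which begins 28 bases before the start. The Etd window holds GATAAG, the reverse complement of ACAAAG, and TATAAA, which begin 205, 96 and 73 bases before the start. The other three windows hold none of these letters. Among 32851 windows of the same length, 16.3% hold AGGTCA, 18.7% ACAAAG, 7.44% GATAAG and 13.6% TATAAA, and a match is given as a description only.

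Edn1, Pappa, Cst12 and 4930486L24Rik were also among the 15 largest rises. Edn1, which encodes the vasoactive peptide endothelin 1, read 6.62, 6.04 and 6.38 at TS24 and 7.49, 7.63 and 7.90 at TS34, a rise of 1.33 ± 0.21 with a limma adjusted p of 0.000124. Pappa, a protease that frees insulin-like growth factors by cutting their binding proteins, read 7.54, 8.19 and 8.13 and then 9.41, 8.80 and 9.15. Its rise was 1.17 ± 0.21 (limma adjusted p = 0.000691), and for both genes the 2 stages did not overlap. Cst12, a member of the cystatin family of protease inhibitors, had the largest rise among the genes called, at 2.19 ± 0.34, and its TS34 arrays were uneven at 8.99, 9.18 and 10.81. The predicted gene 4930486L24Rik followed with 2.10 ± 0.22 and read 8.31 to 8.38 at TS34 after 5.90 to 6.77 at TS24. Both belong to gene families with close copies, and sharing of probes between copies was not examined.

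**Figure D2:**
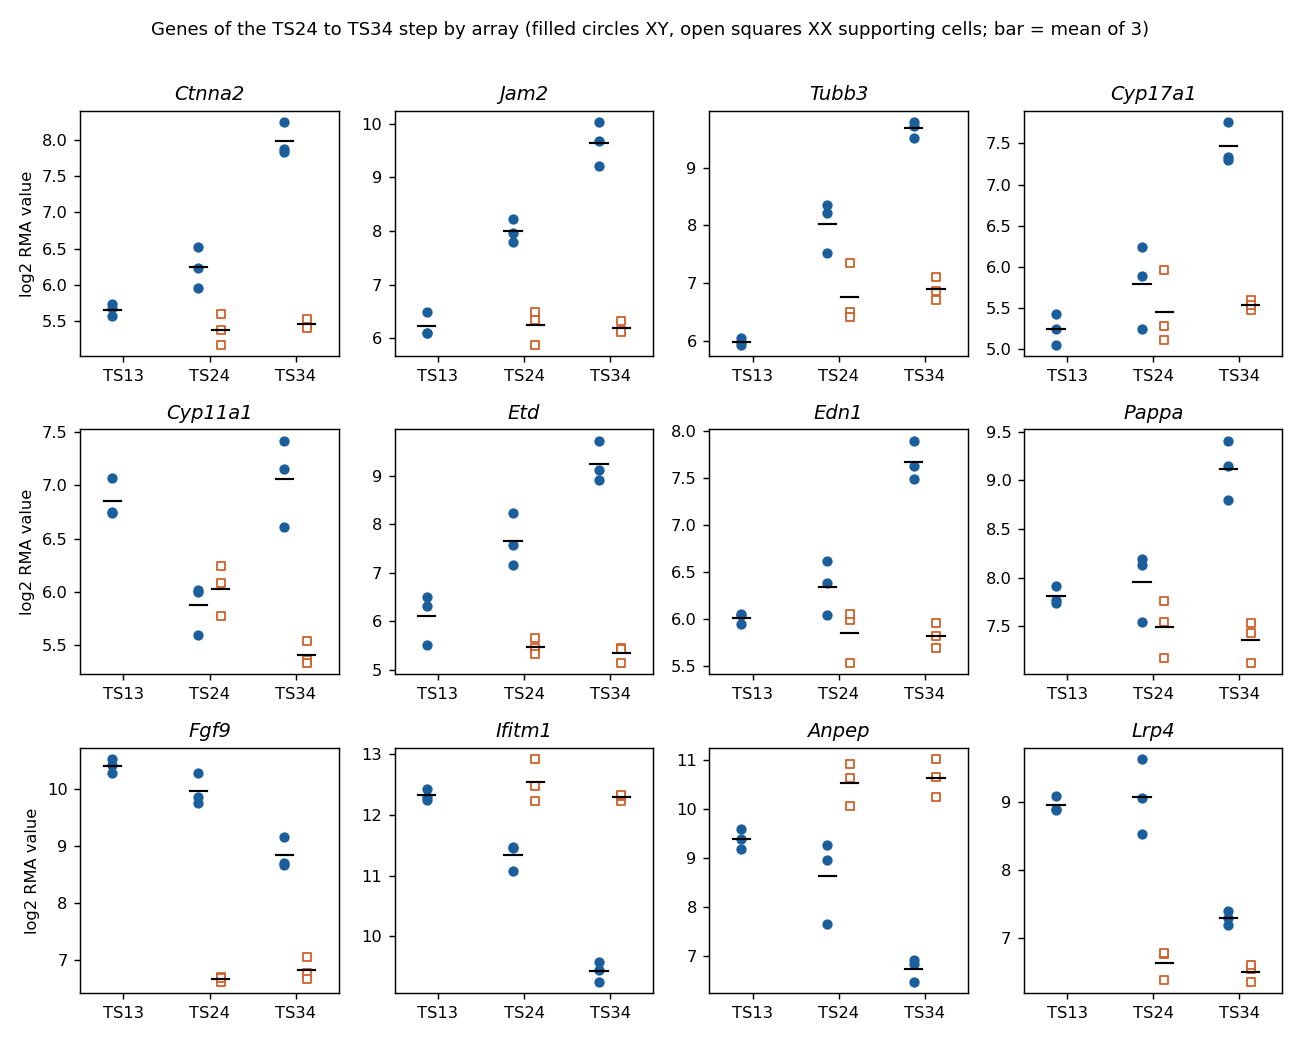
Log2 RMA values of 12 genes in every supporting-cell array, XY as filled circles at TS13, TS24 and TS34 and XX as open squares at TS24 and TS34, with a bar at each mean of 3 arrays. In all 12 panels the XY arrays of TS24 and TS34 do not overlap, and the XX levels of all these genes but Cyp11a1 differ by at most 0.25 in mean between the stages.

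Daam2, a formin that links WNT signals to actin, rose by 1.39 ± 0.23, from 7.54 to 7.68 at TS24 to 8.48 to 9.34 at TS34. The XX arrays were already at 9.12 to 9.58 at both stages, so XY levels approached those of XX. Among genes best known from other tissues, the muscle genes Smpx and Tnni3 rose by 1.31 ± 0.27 and 1.08 ± 0.20, while Tnnc1, which encodes the slow and cardiac troponin C, fell by 1.32. Tnni3, cardiac troponin I, was the most even of these at 9.98, 10.22 and 10.16 and then 11.20, 11.19 and 11.22. Jakmip2, a microtubule-binding protein, rose by 1.12 ± 0.22 and Shisa6, a partner of glutamate receptors, by 1.01 ± 0.26. The weakest of these was Shisa6 (limma adjusted p = 0.0404), which missed the threshold in 5 of the 6 fits that left out 1 XY array (all but that without TS24 replicate 3). Smpx missed it without TS24 replicate 3 or TS34 replicate 3, and Jakmip2 without TS24 replicate 3.

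Of 31 tested Sertoli genes, Etd rose, where 0.159% of all genes were called higher, and Fgf9, Nr5a1 and Cbln4 fell, where 0.903% were called lower. Fgf9 is among the genes given as marking the step, and the count of falls is a description only. The list's median of -0.15 was close to the -0.17 of all genes. Etd, named for embryonic testis differentiation, read 7.58, 7.16 and 8.24 and then 9.12, 8.90 and 9.72. The stages were apart, and the rise was 1.59 ± 0.26, or 3.01-fold (limma adjusted p = 0.000144). Sox8, a relative of Sox9 that acts with it, went from 7.92, 7.85 and 7.90 to 8.16, 8.83 and 8.71. Its difference of 0.68 ± 0.22 missed the threshold on the deposited scale (limma adjusted p = 0.145) and passed it after quantile normalization, at 0.85 with an adjusted p of 0.0221.

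Fgf9 was the clearest loss among them. It read 10.28, 9.75 and 9.85 at TS24 and 8.69, 8.66 and 9.16 at TS34, after a mean of 10.41 at TS13, and remained far above the 6.61 to 7.04 of the XX arrays. The fall was 1.12 on the log2 scale, or 2.17-fold (SE 0.19, limma adjusted p = 0.000268), and it kept its call in all 6 fits that left out 1 XY array. Nr5a1, the nuclear receptor that drives both Sertoli and steroidogenic genes, read 10.01, 9.22 and 9.20 and then 8.54, 8.58 and 8.80. Cbln4, a secreted protein first described at synapses, read 10.30, 10.21 and 10.73 and then 9.81, 9.47 and 9.49. Neither gene's stages overlapped and both had a limma adjusted p of 0.0404, but neither was called after quantile normalization (adjusted p = 0.0773 and 0.116). Both calls were also lost without TS24 replicate 1 or any 1 of the TS34 arrays, and that of Cbln4 without TS24 replicate 3.

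Of the best-known Sertoli genes, most did not pass the test. Sox9 differed by -0.50 ± 0.21 (limma adjusted p = 0.294) with its stages apart. Amh, which encodes anti-Müllerian hormone, read 9.67, 10.13 and 10.18 and then 9.99, 9.66 and 9.88, so that its stages overlapped, and its difference of -0.15 turned to 0.03 after quantile normalization. Dhh, the hedgehog ligand, was at 8.56, 8.23 and 7.85 and then at 7.52, 7.74 and 7.76, a difference of -0.54 ± 0.21 (limma adjusted p = 0.252). Ptgds, the prostaglandin D2 synthase, Dmrt1, a transcription factor that maintains male fate, and Clu, the secreted chaperone clusterin, differed by 0.21, -0.39 and 0.67, and none of them was called. Nr0b1, an X-linked repressor of Nr5a1 targets, had a difference of -0.94 ± 0.30 that did not pass (limma adjusted p = 0.147), although its stages were apart. The supporting precursor list, which holds Sry and the genes of the early gonad, had no gene called among 19 tested. With the 18 supporting arrays alone or without TS24 replicate 2, it had 1 gene called lower.

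**Figure D3:**
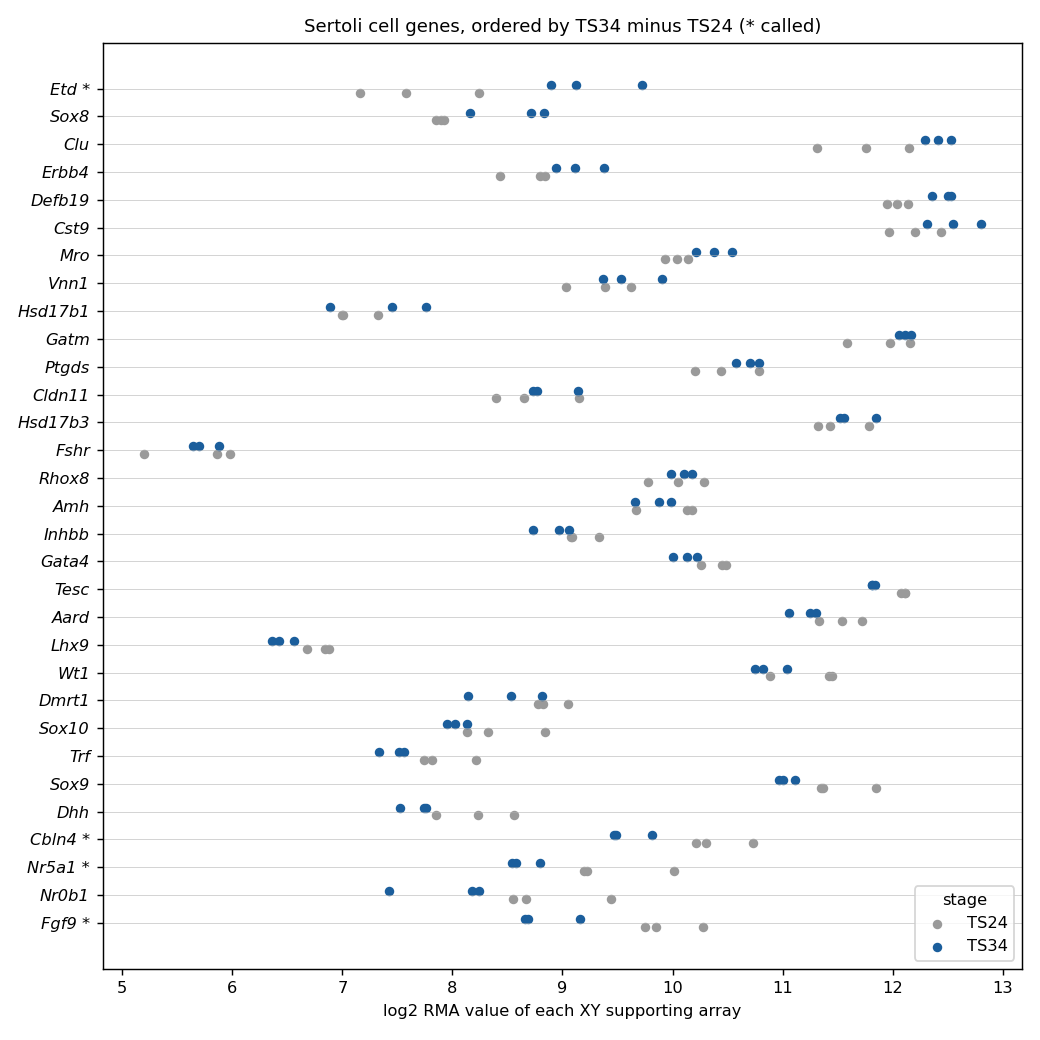
Log2 RMA values of the 31 tested Sertoli genes in each XY supporting array, TS24 in grey and TS34 in blue, ordered by the difference between the stages. The 4 genes with an asterisk (Etd, Fgf9, Nr5a1 and Cbln4) passed the test, and Etd and Fgf9 stand at the ends of the order.

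Fgf9 was the one gene of the FGF pathway that passed the test. Of 18 tested FGF genes, which include receptors, the feedback inhibitors of the Sprouty family and the ETS targets, Fgf9 fell and none rose, against 0.903% of all genes called lower. Since Fgf9 was given as marking the step, this count is a description only. The median of the list was -0.19. The feedback inhibitors Dusp6 and Spry1, which rise with FGF signalling, differed by -0.64 ± 0.29 and -0.54 ± 0.20 and did not pass (limma adjusted p = 0.331 and 0.245). The 2 stages of Dusp6 were apart, at 8.88 to 9.73 and then 8.58 to 8.76, while those of Spry1 overlapped.

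Among 19 tested ligands of the germ cell niche, Fgf9 was again the one gene that fell, where 0.903% of all genes were called lower. This count too holds a gene given as marking the step and is a description only. It was 3 with the 18 supporting arrays alone and 2 with the 6 XY arrays alone. Kitl, which encodes the ligand of the KIT receptor of germ cells, went from 11.06, 10.44 and 10.94 to 9.99, 9.76 and 10.17. Its difference of -0.83 ± 0.23 stopped short of the threshold (limma adjusted p = 0.0658) with its stages apart. Gdnf, the growth factor of spermatogonial stem cells, differed by -0.67 ± 0.21 (limma adjusted p = 0.139). Igf1 was at 6.13, 5.80 and 6.04 and then at 6.28, 6.51 and 6.89, a difference of 0.57 ± 0.21 that was called only after quantile normalization or median centring (adjusted p = 0.0447 and 0.0387). Cyp26b1, the enzyme that destroys retinoic acid in the testis cords, differed by -0.65 ± 0.22 and was not called (limma adjusted p = 0.179), nor was any of the 18 tested retinoic acid genes. Without TS24 replicate 2, 1 of the retinoic acid genes was called lower. None of 13 tested hedgehog genes and none of 12 tested hormone receptors was called.

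In the TGF-beta family list, Id3 was the one gene called among 27 tested. It was called higher, as were 0.159% of all genes. In alternatives, 1 member of the list was called lower with the 18 supporting arrays alone or without TS24 replicate 3. Id3, a target of BMP signals that holds back basic helix-loop-helix factors, read 8.33, 8.62 and 8.41 and then 9.33, 9.55 and 9.41, a rise of 0.98 ± 0.24 (limma adjusted p = 0.0221). Its stages were apart, yet the call was lost in 5 of the 6 fits that left out 1 XY array (all but that without TS24 replicate 2) and was kept after quantile normalization (adjusted p = 0.00146). Id2 and the activin subunit gene Inhba were 0.68 and 0.52 higher without passing, and the ligand gene Bmp7 differed by -0.75 (limma adjusted p = 0.0626).

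Of 17 tested pregranulosa genes, which are linked to the female supporting fate, Lgr5 and Runx1 fell, where 0.903% of all genes were called lower, and none rose. Lgr5, a receptor for the R-spondins, read 10.41, 9.78 and 9.45 and then 8.78, 8.96 and 9.25, and it fell by 0.88 (SE 0.22, limma adjusted p = 0.0273). Runx1, a transcription factor of early supporting cells and of the ovary, read 8.25, 7.56 and 7.76 and then 6.93, 6.86 and 7.16, and fell by 0.87 (SE 0.22, limma adjusted p = 0.0277). Their stages did not overlap. Both calls were lost without TS24 replicate 1, TS34 replicate 1 or TS34 replicate 2, and that of Runx1 also without TS24 replicate 3 or TS34 replicate 3. Runx1 was not called after quantile normalization (adjusted p = 0.0831), and Lgr5 was not called after median centring (adjusted p = 0.0516). Foxl2 and Wnt4, which define the ovarian fate, differed by -0.39 and -0.51 without passing. In the WNT list, Lgr5 was the one call among 22 genes, where 0.903% of all genes were called lower. With the 18 supporting arrays alone, the 6 XY arrays alone or without TS24 replicate 2, 2 genes of that list were called lower.

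**Figure D4:**
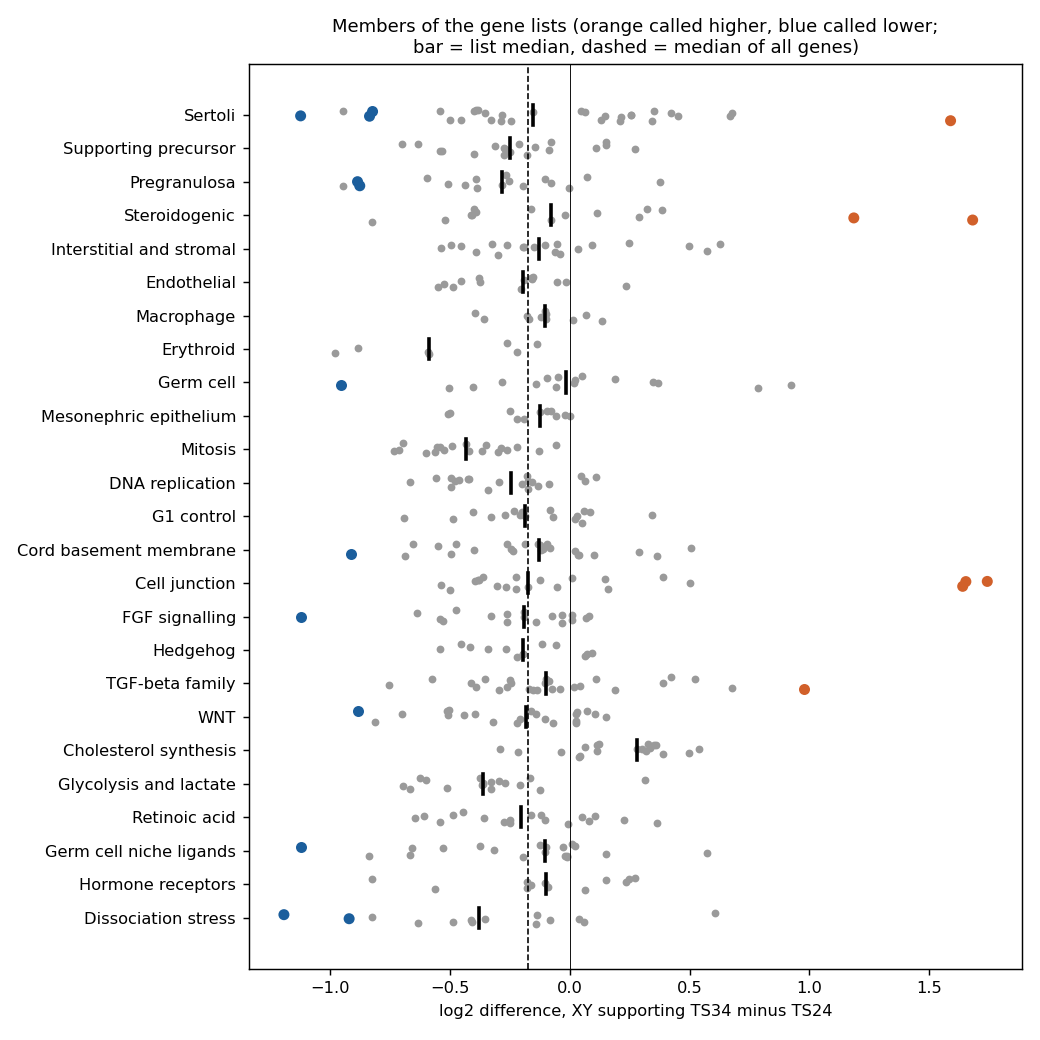
Log2 differences, TS34 minus TS24, of the tested members of the 25 gene lists, 1 point per gene, with called genes in orange (higher) and blue (lower), a black bar at each list's median and a dashed line at the median of all genes, -0.17. The cell junction and steroidogenic lists hold 5 of the called rises at 1.18 to 1.74, while the cholesterol synthesis median lies above the line at 0.28 and the mitosis median below it at -0.43.

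Ifitm1, Anpep and Lrp4 were among the largest falls. Ifitm1, an interferon-induced membrane protein also found on embryonic cells, fell most among the genes called. It read 11.07, 11.47 and 11.46 and then 9.25, 9.57 and 9.45, and fell by 1.91 on the log2 scale, or 3.75-fold (SE 0.20, limma adjusted p = 1.23e-08). A second probe set of the gene, with a lower mean over all arrays, fell by 2.76. Anpep, aminopeptidase N, read 8.95, 7.65 and 9.26 and then 6.92, 6.83 and 6.47, and fell by 1.88 (SE 0.29, limma adjusted p = 5.93e-05). Lrp4, a co-receptor of agrin that also dampens WNT signals, read 9.63, 8.53 and 9.05 and then 7.39, 7.29 and 7.18, and fell by 1.78 (SE 0.23, limma adjusted p = 1.21e-06). For these 3 genes the TS34 arrays were close together and all below the TS24 arrays.

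Robo1, Plxna4, Smoc2 and Nell1 fell as well. Robo1, a receptor for the Slit guidance proteins, stood between 11.65 and 12.31 at TS24 and between 10.59 and 10.67 at TS34, and fell by 1.35. Plxna4, a semaphorin receptor, fell by 1.37, Smoc2, a calcium-binding matrix protein, by 1.38, and Nell1, a secreted protein known from bone, by 1.61. Limma adjusted p-values of these 4 genes lay between 5.15e-06 and 0.000124, and their stages were apart. Vcan, the matrix proteoglycan versican, fell by 1.37 on the deposited scale (limma adjusted p = 0.0127). That call ended after quantile normalization (adjusted p = 0.0519) and without TS24 replicate 1, TS34 replicate 1 or TS34 replicate 2. Of 24 tested genes of the cord basement membrane, Col18a1 fell and none rose, where 0.903% of all genes were called lower. Without TS24 replicate 2, 4 genes of that list were called lower. Col18a1, a collagen of basement membranes, fell by 0.91 (SE 0.21, limma adjusted p = 0.0123). It was not called after quantile normalization (adjusted p = 0.0773), nor without TS24 replicate 3, TS34 replicate 1 or TS34 replicate 2. Lama1, the laminin chain of embryonic basement membranes, was 0.51 ± 0.22 higher and not called.

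The other named falls included Pnliprp2, Dct and Kcnk2. Pnliprp2, a lipase related to that of the pancreas, fell by 1.87 and Dct, an enzyme of melanin synthesis, by 1.77. Kcnk2, a potassium channel of the tandem-pore family, read 8.70, 8.17 and 8.75 and then 6.78, 7.10 and 7.18, and fell by 1.52 (SE 0.21, limma adjusted p = 9.71e-06). Ifi27l2a, an interferon-induced gene, fell by 1.38, the cystatin-related Cstdc2 by 1.36 and Ckb, the brain form of creatine kinase, by 1.32. Cstdc2 read 8.18 in TS24 replicate 1 and 6.88 and 6.31 in the other two arrays of that stage, and its call was lost without replicate 1. The call of Tnnc1 was lost without TS34 replicate 1 and that of Ckb without TS34 replicate 3.

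No cell cycle gene passed the test. Of 19 tested mitosis genes, 12 had stages that did not overlap with TS34 lower, where 18.8% of all genes did, and the median difference was -0.43 on the deposited scale and -0.24 after quantile normalization. Ttk, a spindle checkpoint kinase, read 9.83, 8.93 and 8.86 and then 8.50, 8.55 and 8.36, and Cenpf, a kinetochore protein, read 10.91, 9.96 and 10.01 and then 9.44, 9.80 and 9.56. In both, TS24 replicate 1 was the high array. Rrm2, the ribonucleotide reductase subunit of S phase, differed by -0.66 and Ccnd1, the G1 cyclin D1, by -0.69. Neither was called, and no member of the 20 tested DNA replication genes or the 17 tested G1 genes was.

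Both metabolic lists had no called gene either, and they lay on opposite sides of the median gene. Of 19 tested cholesterol synthesis genes, 6 had all TS34 arrays above all TS24 arrays, where 2.23% of all genes did. Another 2 had all TS34 arrays below, where 18.8% did. The mean log2 level of the list was 8.12, 7.79 and 8.17 at TS24 and 8.15 to 8.31 at TS34, with TS24 replicate 2 the low array. The median difference was 0.28. Hsd17b7 and Idi1, enzymes of that pathway, had the highest values at 0.54 ± 0.26 and 0.50 ± 0.25 (limma adjusted p = 0.349 and 0.377). Of 17 tested genes of glycolysis and lactate transport, 9 had their TS34 arrays all below TS24, where 18.8% of all genes did. The median was -0.36, with Slc16a1, a lactate transporter, at -0.70 and the glycolytic enzyme Pgk1 at -0.66. In this list 1 gene was called lower when probe sets of a gene were averaged, and 1 without XY TS24 replicate 2. Probe sets of a gene could differ, with Hk1 at -0.36 in the one used and -1.24 in another, and Ldhb at -0.62 and -0.05.

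Markers of other cells were low or moved little, with some exceptions. No member of the endothelial (14 tested), macrophage (11), erythroid (7), mesonephric epithelium (11) or interstitial and stromal (20) lists was called. In alternatives, 1 endothelial gene was called lower with the 18 supporting arrays alone, and 1 erythroid gene without XY TS24 replicate 2. The mean log2 level of the interstitial list was 6.88 to 7.08 at TS24 and 6.88 to 6.96 at TS34, and within it Dcn and Acta2, which encode decorin and smooth muscle actin, were 0.63 ± 0.28 and 0.50 ± 0.23 higher without passing. Igf1, also a member of the interstitial list, was called higher after quantile normalization or median centring, as given above, and its step differed from that of XX by 1.47. The endothelial list averaged 6.40 to 6.50 and then 6.18 to 6.20, the macrophage list 5.97 to 6.17 and then 5.90 to 5.96, and the mesonephric list 6.99 to 7.25 and then 6.89 to 6.99. The erythroid list averaged 6.92 to 7.74 and then 6.62 to 6.74, and its embryonic globin Hbb-y read 11.57 in TS24 replicate 1 against 8.87 to 9.18 in the other five arrays. The 16 germ cell genes averaged 6.13 to 6.31 and then 6.24 to 6.28. Among them Utf1 fell, where 0.903% of all genes were called lower, by 0.95 (limma adjusted p = 0.0429, and 0.176 after quantile normalization). Dppa3 was 0.92 higher (limma adjusted p = 0.0595, and 0.0096 after quantile normalization). Of 14 genes that respond to tissue dissociation, Fosb and Fos fell, where 0.903% of all genes were called lower. Their falls were 1.19 and 0.92, with limma adjusted p-values of 0.00505 and 0.0263. Fosb was called after quantile normalization (adjusted p = 0.0233) and Fos was not (0.0968). Without TS24 replicate 1 or TS34 replicate 1 neither was called, and Fos was called only in the fit without TS34 replicate 3. The call of Utf1 held without TS24 replicate 2 or TS34 replicate 2 and was lost without each other array. The part of these cell types and of the handling of the tissue in the results above was not tested.

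The same step was then set against the step of XX supporting cells, which shares no array with it. In 40 genes (0.227%) the XY step differed from the XX step by the interaction term, 19 (0.108%) towards a higher and 21 (0.119%) towards a lower value in XY. Sex and mouse line changed together here and cannot be told apart. Of the 40 genes, 24 were also called in the XY step and 14 in the XX step. The interaction term is built from the arrays of both steps, so these overlaps are a description only. The XX step called 113 genes (0.641%) by itself, 31 higher (0.176%) and 82 lower (0.466%). The counts of 40 and 113 both turned on single arrays. The 40 became 21 and 24 without XY TS24 replicates 1 and 3, 22 and 20 without XY TS34 replicates 1 and 3, 24 without XX TS24 replicate 2 and 22 without XX TS34 replicate 2. The 113 of the XX step became 51 without XX TS24 replicate 2, and 61, 38 and 68 without XX TS34 replicates 1, 2 and 3.

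The 4 genes given as marking the XY step all differed from XX by the interaction term. That term holds the same XY arrays, so this is a description only. Cyp11a1 had a step difference of 1.81 ± 0.33 (limma adjusted p = 0.00289), with XX arrays at 6.24, 5.77 and 6.08 and then 5.54, 5.36 and 5.33. Ctnna2 had one of 1.66 ± 0.29 (limma adjusted p = 0.00179) and Cyp17a1 one of 1.60 ± 0.32 (limma adjusted p = 0.0103), and the XX arrays of both stayed between 5.11 and 5.96. For Fgf9 the step difference was -1.29 ± 0.27 (limma adjusted p = 0.0123). Jam2 (1.69), Etd (1.72), Edn1 (1.36), Pappa (1.30) and Lgr5 (-1.35) also passed, with limma adjusted p-values from 0.0165 to 0.0408. Among the 4 marking genes, Cyp11a1 and Ctnna2 kept this call in all fits that left out 1 XY or 1 XX supporting array. Cyp17a1 lost it without XY TS24 replicate 1, XY TS34 replicate 1 or XX TS24 replicate 1. Fgf9 lost it without XY TS24 replicate 1, XY TS34 replicate 1 or 2, or XX TS34 replicate 3. Jam2, Etd, Edn1, Pappa and Lgr5 each lost it in 3 or 4 of the 6 fits that left out 1 XY array and in 2 to 5 of the 6 that left out 1 XX array. For Tubb3 (1.51) and Daam2 (1.18) the difference between the steps did not pass (limma adjusted p = 0.185 and 0.169).

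Ifitm1 and Anpep also differed in level between the XX and XY arrays, where sex and mouse line again cannot be told apart. The XX arrays held Ifitm1 at 12.23 to 12.92 and Anpep at 10.06 to 11.01 across both stages, while XY arrays ended at 9.25 to 9.57 and 6.47 to 6.92. The step differences were -1.65 ± 0.29 (limma adjusted p = 0.00179) and -1.98 ± 0.40 (limma adjusted p = 0.0103), and that of Anpep was not called without XY TS24 replicate 1 or 3, XY TS34 replicate 3, XX TS24 replicate 3 or XX TS34 replicate 1. Lrp4 and Nell1 ran the other way in level, with XX at 6.35 to 6.77 and 6.04 to 6.66 and XY at 7.18 to 7.39 and 6.89 to 7.60 at TS34. Their step differences were -1.64 ± 0.32 and -1.67 ± 0.31 (limma adjusted p = 0.00699 and 0.00384), and that of Lrp4 was lost without XY TS24 replicate 1.

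Some step differences came from the XX side. Sprr2d, a small proline-rich protein, stayed between 5.57 and 6.26 in XY and fell from 9.57, 11.15 and 10.13 to 6.59, 7.04 and 6.73 in XX, a step difference of 3.10 ± 0.36 (limma adjusted p = 4.87e-07). Cntnap5a and Mgp, the latter encoding matrix Gla protein, likewise differed by 1.93 ± 0.29 and -1.84 ± 0.34, while their XY steps of -0.13 and 0.09 were not called. For Igfbp3, which binds insulin-like growth factors, XY was 0.70 higher without passing and XX fell by 1.70, giving 2.40 ± 0.43 (limma adjusted p = 0.00281). Cst12 and Pnliprp2 moved in XX as they did in XY, by 1.90 and -2.96, and the difference between the steps did not pass for either (limma adjusted p = 1.0 and 0.762).

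**Figure D5:**
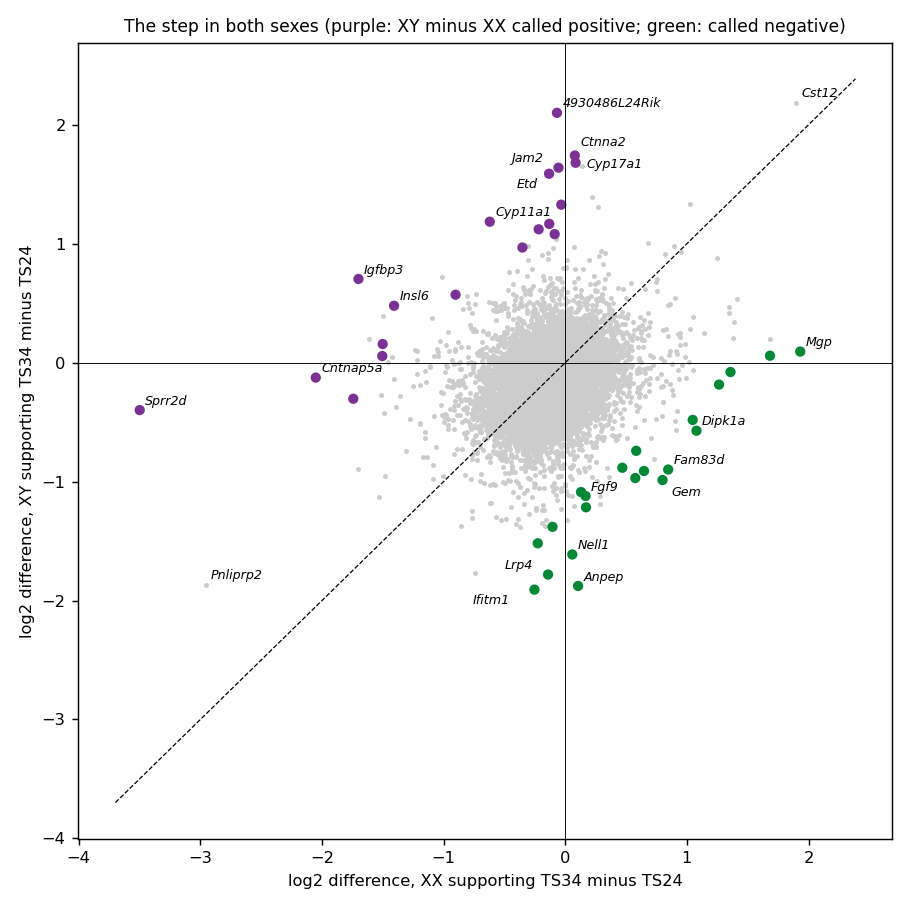
Log2 difference, TS34 minus TS24, of each of 17615 genes in XX (horizontal axis) and XY (vertical axis) supporting cells. Purple and green points are the 40 genes whose steps differ by the interaction term, and the dashed line marks equal steps. Ctnna2, Cyp17a1, Jam2 and Etd lie high near 0 on the XX axis, Sprr2d lies far left near the XY zero, and Cst12 and Pnliprp2 lie towards the line.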

How the data were processed

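RNA of sorted cells was hybridised to Affymetrix mouse Gene 1.0 ST arrays, per the labels' protocols. The authors deposited log2 values, and the submitters' processing notes name RMA. No source used here names its version or the genome build. Of 35557 probe sets, the platform's annotation gave 1 gene symbol to 21789, several to 1621, and did not list 12147, which are unnamed here. Symbols were updated by Entrez identifier, and the probe set with the highest mean represented each of 19938 genes. Genes above the array's 25th percentile on at least 3 arrays were kept, 17615 in all. A model with 1 mean per group was fitted with limma 3.58.1 in R 4.3.3 on 35 arrays, without germ XX TS24 replicate 3, and p-values were adjusted over all genes tested. The fit was tested on simulated data in which each gene had the same spread in every group. It called 4 of 67 changes of 0.5 log2, 49 of 67 of 1 and 65 of 66 of 2 in the right direction. It also called 3 unchanged genes. Differences near 0.5 are therefore mostly missed by this test, and a gene not called is not shown to be unchanged. Differences from TS13 are given without a test. The genes named are the 4 that mark the step, the 15 largest rises and 15 largest falls called with stages apart, called or completing members of the lists, the 8 largest step differences in each direction, and check genes. Members and lists were chosen with earlier results of these data known. Promoter sequences are from RefSeq on GRCm38.p6, and the table used here matched 22 of 31 leading genes. Alternatives were other scalings, filters, array sets, a variance trend, a replicate block and leaving out each XY supporting array and, chosen after seeing the data, each XX supporting array.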

Additional observations from a re-analysis of the deposited data

Results flagged for a closer look

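The step from TS24 to TS34 differed between XY and XX supporting cells by the interaction term in 28 of the genes examined by name or list, 15 towards a higher and 13 towards a lower value in XY. Values are differences of log2 differences, XY minus XX. Sex and mouse line cannot be told apart in them.

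Ctnna2 was at 1.66, Jam2 at 1.69, Cyp11a1 at 1.81 and Cyp17a1 at 1.60. Edn1 was at 1.36, Pappa at 1.30, Igf1 at 1.47, Igfbp3 at 2.40 and Insl6 at 1.89. For Igf1, Igfbp3 and Insl6 the XX step fell, by 0.90, 1.70 and 1.41, and the XY step was not called. Other genes with a higher step in XY were Etd at 1.72, 4930486L24Rik at 2.17, Jakmip2 at 1.34, Tnni3 at 1.17, Cntnap5a at 1.93 and Sprr2d at 3.10.

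Towards a lower value, Ifitm1 was at -1.65, Anpep at -1.98, Lrp4 at -1.64, Lgr5 at -1.35 and Kcnk2 at -1.29. Fgf9 was at -1.29, Nell1 at -1.67, Smoc2 at -1.28, Mgp at -1.84 and Thbs2 at -1.44. For Mgp and Thbs2 the XX step rose, by 1.93 and 1.36, and the XY step was not called. Gem, a small GTPase, was at -1.79, Fam83d, a spindle protein, at -1.74 and Dipk1a at -1.65.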

How the results depend on the processing

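In the alternatives run, no gene called in the XY step on the deposited scale changed sign. The smallest called differences were 0.73 and -0.75, and quantile normalization moved the median gene only from -0.174 to -0.002. A change of sign was therefore hardly possible, and its absence is a description only. The 187 calls became 74 with all 36 arrays and 84 with quantile normalization without TS24 replicate 1, an alternative chosen after seeing the data. Leaving out 1 XY supporting array gave 70 to 315, and 1 XX supporting array, also chosen after seeing the data, 181 to 193. The 28 higher calls became 15 with all 36 arrays, 70 with quantile normalization, 68 with median centring and 43 with quantile normalization without TS24 replicate 1, and 14 to 30 when 1 XY or XX array was left out. The 159 lower calls became 59, 77, 83 and 41 in the same order, 244 with the 18 supporting arrays alone, and 56 to 285 when 1 such array was left out. The 40 step differences became 13 with all 36 arrays and 63 with quantile normalization, 20 to 37 when 1 XY array and 22 to 35 when 1 XX array was left out. The 113 calls of the XX step became 20 with all 36 arrays and 38 to 118 when 1 XY or XX array was left out.

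Of 40 genes named and called in the XY step, 15 missed the threshold with all 36 arrays (Daam2, Smpx, Shisa6, Plxna4, Vcan, Ckb, Cbln4, Nr5a1, Runx1, Lgr5, Utf1, Col18a1, Id3, Fos and Fosb), 7 with quantile normalization and 7 with median centring. Amh, which was not called, turned from -0.15 to 0.03 with quantile normalization and 0.00 with median centring. After each gene's stage mean was subtracted, what remained in arrays of the same replicate number at the 2 stages correlated at -0.12, -0.06 and -0.04. These values cannot settle whether the numbers pair the samples. With the replicate block, 175 genes were called in the XY step and 34 step differences, and Utf1 was the one named gene whose XY call was lost (adjusted p = 0.051), beside the named step differences of Jam2, Tnni3 and Smoc2. Of the 28 step differences named, 17 missed the threshold with all 36 arrays, Sprr2d, Nell1, Anpep, Jam2 and Etd among them, and 15 without TS24 replicate 1, while 28 kept it with quantile normalization.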
